A study of Mus musculus with 12 samples.

Results

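The genes described here are 10 steps and carriers of glucose breakdown to exported lactate: Slc2a1, Hk1, Hk2, Pfkp, Aldoa, Pgk1, Eno1, Pkm, Ldha and Slc16a3. They were taken by symbol from the 55401 genes of the expression table, where they fill 11 rows because Aldoa is listed under 2 identifiers, and all 10 genes were among the 12016 that passed the filter on low values. Gapdh, another glycolysis enzyme, was left out because its counts ran from 10229 to 36330 between libraries, with the highest values in untreated replicate 2 and in G-MDSC supernatant replicates 1 and 2. The study asked how culture supernatants of myeloid-derived suppressor cells (MDSCs) change mesenchymal stem cells (MSCs) that TGF-β1 drives towards myofibroblasts, the contractile, collagen-making cells of scars. MSCs from C57BL/6 mouse bone marrow, bought from a supplier, were left untreated, given TGF-β1 at 5 ng/mL, or given the same TGF-β1 together with supernatant of monocytic MDSCs (M-MDSC, CD11b+Ly6G-Ly6C high) or granulocytic MDSCs (G-MDSC, CD11b+Ly6G+Ly6C low). The MDSCs had been induced from bone marrow of C57BL/6 mice and sorted. Each of the 4 groups had 3 poly(A) RNA libraries, 12 in all. No group received supernatant without TGF-β1, or MDSC culture medium that had held no cells, so an effect of MDSC products and an effect of the medium itself cannot be told apart. The labels do not say that replicates came from separate cultures, so the p-values measure only the spread between these libraries, which may be technical.

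Glycolysis splits glucose into pyruvate in the cytosol and yields ATP without oxygen. Glucose enters through carriers such as GLUT1 (Slc2a1) and is trapped as glucose 6-phosphate by hexokinases (Hk1, Hk2). Phosphofructokinase (Pfkp is its platelet-type subunit) commits the sugar to breakdown, aldolase (Aldoa) cleaves it, and phosphoglycerate kinase (Pgk1), enolase (Eno1) and pyruvate kinase (Pkm) carry out later steps. Lactate dehydrogenase A (Ldha) reduces pyruvate to lactate, and MCT4 (Slc16a3) exports lactate with a proton. Many of these genes are known targets of the hypoxia-inducible factors (HIFs), and a rise in glycolysis is a known feature of activated myofibroblasts.

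With TGF-β1 the members did not move one way. Among them Slc2a1 rose by 1.40-fold, Hk2 by 1.47-fold and, on a borderline call, Slc16a3 by 1.24-fold, and Hk1, Pfkp, Aldoa and Eno1 did not pass the test. Pgk1 fell to 0.764, Ldha to 0.798 and Pkm to 0.887 of the untreated level. Addition of either supernatant to TGF-β1 raised Pgk1 and Ldha again by 1.13-fold to 1.20-fold, and no member fell with either supernatant. Ldha with G-MDSC supernatant was called in all 17 alternative fits, though not by a rule that asks for a fold change over 2 or under 0.5, which no member met, while its call with M-MDSC supernatant and both calls of Pgk1 were lost when single libraries were left out. No member passed the test between the M-MDSC and G-MDSC supernatants. Fold changes are from the read counts, with edgeR and adjustment over all genes tested, and levels below are FPKM, fragment counts corrected for the length of the exons and for the size of the library, which allows levels of different genes to be compared. In bulk RNA, a change in the number of cells that express a gene and a change in RNA per cell cannot be told apart.

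All 12 libraries were deep, with 73977669 to 84565450 counts. The 8 MSC markers on the list summed to 500.2 to 598 FPKM and all were detected, but the sum covers opposite changes. Of the 7 tested, 4 rose and 3 fell with TGF-β1, against 16.1% and 17.9% of all genes. Itgb1, an integrin, had the highest mean of the list in each group and rose from a mean of 253.8 to 385 FPKM. Ly6a (Sca-1) fell from 245 to 16.2 FPKM (log2 fold change -3.86), Pdgfra by 1.44 and Thy1 by 0.99 on the log2 scale. Ly6a rose with M-MDSC (2.49) and G-MDSC supernatant (2.02). Pecam1, Cdh5 and Kdr, markers of endothelial cells, summed to at most 0.554 FPKM. Of the 10 myeloid and MDSC markers, Mpo was at 0 counts in every library, and the sum of the list was 6.20 to 7.10 FPKM in untreated cells, 2.27 to 3.18 with TGF-β1, 4.32 to 6.77 with M-MDSC supernatant and 5.63 to 8.44 with G-MDSC supernatant. Members of that list differed. Lyz2, lysozyme of macrophages and neutrophils, was at most 0.191 FPKM in any library without supernatant. It was 0.651 to 2.29 FPKM with M-MDSC and 1.56 to 2.11 FPKM with G-MDSC supernatant. It passed the filter on low values only through the supernatant groups, so its test is no support and is left out. Ly6g was 1.74 to 1.89 and Ly6c2 1.59 to 1.83 FPKM in untreated cells against at most 0.308 FPKM in any other library. The response to TGF-β1 was present: Acta2 (log2 fold change 0.53), Col1a1 (1.11) and Ccn2 (2.53), genes of the myofibroblast programme, all rose. Transcripts of kidney tubule were found only in the libraries with supernatant. The markers Kap, Umod and Slc34a1 were at 0 counts in all 6 libraries without supernatant and summed to 40.8 to 54.6 FPKM in the G-MDSC supernatant group and to 10.8, 14.4 and 75.2 FPKM in the M-MDSC supernatant group, where replicate 3 held the highest value. Hemoglobin transcripts moved with them, at 2.02 to 4.24 FPKM summed with supernatant and 0 to 0.457 without. The part of these transcripts in the results with supernatant was not tested beyond the values given beside those results.

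The promoters of the 4 members with the smallest p-values with TGF-β1, Slc2a1, Pgk1, Hk2 and Ldha, are shown because those that rose and those that fell carry the same short motif. The core of the site bound by HIFs reads ACGTG or GCGTG. It was searched on both strands in the 250 bases before each annotated start (RefSeq, build GRCm38.p6), and is in capitals below, read along the gene from 5′ to 3′, so a match on the other strand appears as CACGT or CACGC. Slc2a1 lies at chr4:119108495-119108744 on the plus strand, Hk2 at chr6:82774455-82774704 on the minus strand, Pgk1 at chrX:106186850-106187099 on the plus strand, and the Ldha start with most matches at chr7:46845554-46845803 on the plus strand.
Slc2a1: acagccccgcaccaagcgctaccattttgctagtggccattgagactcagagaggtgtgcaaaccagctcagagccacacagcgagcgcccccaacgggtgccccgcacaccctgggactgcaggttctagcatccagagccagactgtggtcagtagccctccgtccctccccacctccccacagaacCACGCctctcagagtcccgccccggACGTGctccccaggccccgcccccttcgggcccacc
Hk2: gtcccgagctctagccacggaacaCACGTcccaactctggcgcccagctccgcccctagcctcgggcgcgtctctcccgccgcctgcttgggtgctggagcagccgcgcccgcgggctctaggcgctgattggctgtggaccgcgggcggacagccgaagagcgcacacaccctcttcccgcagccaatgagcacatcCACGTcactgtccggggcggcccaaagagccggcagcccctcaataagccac
Pgk1: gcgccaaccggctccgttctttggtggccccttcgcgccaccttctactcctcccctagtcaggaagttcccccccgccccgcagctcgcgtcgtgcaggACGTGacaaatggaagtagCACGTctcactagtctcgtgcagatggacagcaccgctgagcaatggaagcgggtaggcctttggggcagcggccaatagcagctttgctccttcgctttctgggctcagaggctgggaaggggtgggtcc
Ldha: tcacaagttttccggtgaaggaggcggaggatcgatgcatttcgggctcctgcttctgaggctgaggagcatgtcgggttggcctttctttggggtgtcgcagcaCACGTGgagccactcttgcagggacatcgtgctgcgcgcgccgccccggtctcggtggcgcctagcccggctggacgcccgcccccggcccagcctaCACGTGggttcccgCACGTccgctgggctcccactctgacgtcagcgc
Slc2a1 and Hk2, which rose with TGF-β1, and Pgk1, which fell, each held 2 matches. Ldha held 5, because its CACGTG, the E-box that is also the motif of MYC and other factors, contains the core on both strands and was found 2 times. At least 1 match was present at 14 of the 17 annotated starts of the members, against 38.6% of 32851 starts of all genes. All 10 members had a match at 1 start or more, but some have several starts. The share of all genes with such a match was not computed. ACGTG alone was at 8 of 17 member starts against 16.6% of all starts, and GCGTG at 7 of 17 against 28.2%. The starts are not independent, since a pair of Eno1 windows and a pair of Aldoa windows overlap and count the same matches 2 times. The median GC content of the member windows was 66.4% against 52.4% over all windows, and its part in these shares was not tested. A match of letters is not evidence of binding, and binding was not measured.

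**Figure D1:**
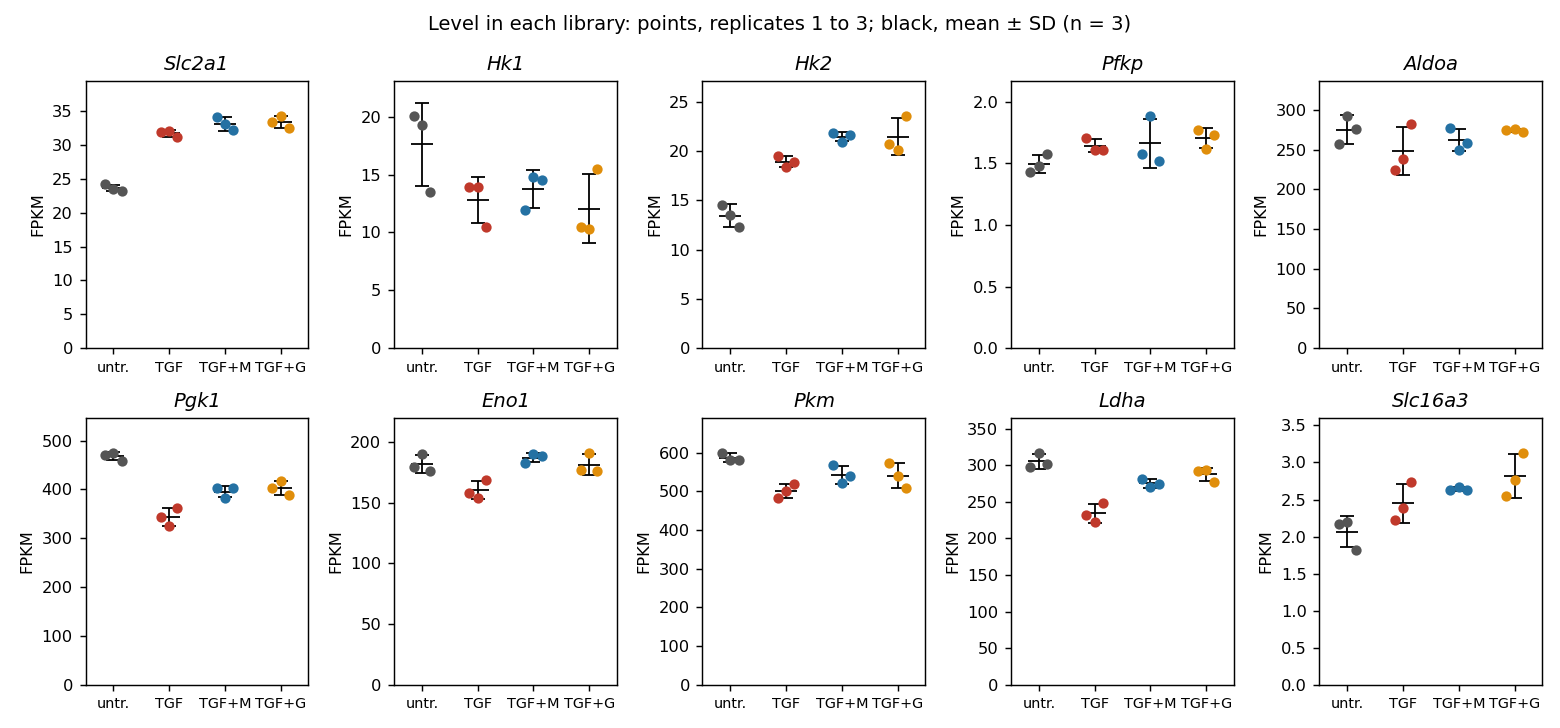
FPKM of each of the 10 genes (vertical axes from 0) in the untreated, TGF-β1, TGF-β1 + M-MDSC supernatant (TGF+M) and TGF-β1 + G-MDSC supernatant (TGF+G) groups. Coloured points are libraries and black bars the mean ± SD (n = 3). Slc2a1 and Hk2 step up and Pgk1 and Ldha step down with TGF-β1 without overlap between libraries, and Hk1 and Aldoa overlap in all groups.

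TGF-β1 was tested against untreated cells, and 3 of 10 members rose, 3 fell and 4 did not pass the test. Over all genes tested 16.1% rose and 17.9% fell, so changes were common in this comparison. The median log2 fold change of the members was -0.11, against 0.00 over all genes. The share of all counts held by the members was 0.778% to 0.811% in untreated libraries and 0.651% to 0.702% with TGF-β1.

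Slc2a1 (ENSMUSG00000028645, chr4:119108711-119137983, GRCm38 as for all positions) encodes GLUT1, the basal glucose carrier of most cells. Its level was 24.2, 23.6 and 23.3 FPKM in untreated replicates 1 to 3, 32.0, 32.1 and 31.2 FPKM with TGF-β1, 34.2, 33.1 and 32.2 FPKM with added M-MDSC supernatant and 33.4, 34.3 and 32.5 FPKM with added G-MDSC supernatant. Every library with TGF-β1 was above every untreated one, and the spread within groups was small. The log2 fold change with TGF-β1 was 0.48 (SE 0.04, adjusted p = 3.02e-06), and it passed in all 17 alternative fits. Both supernatant groups lay just above the TGF-β1 group in FPKM, but the differences were 0.04 for M-MDSC and 0.05 for G-MDSC supernatant (log2, SE 0.04 each) and did not pass the test.

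Hk1 (ENSMUSG00000037012, chr10:62268855-62379908) encodes the widely expressed hexokinase that sits on mitochondria. It measured 20.1, 19.3 and 13.5 FPKM in untreated cells, 14.0, 14.0 and 10.5 FPKM with TGF-β1, 11.9, 14.8 and 14.6 FPKM with M-MDSC supernatant and 10.4, 10.3 and 15.5 FPKM with G-MDSC supernatant. All groups overlapped, and replicate 3 stood apart from the other libraries in 3 groups, low in untreated and TGF-β1 cells and high with G-MDSC supernatant. The log2 fold change of -0.41 with TGF-β1 had an SE of 0.20 and an adjusted p of 0.149, and its 95% interval, -0.85 to 0.04, was the widest of the members.

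Hk2 (ENSMUSG00000000628, chr6:82725025-82774454) encodes the inducible hexokinase. Untreated cells held 14.5, 13.5 and 12.2 FPKM, cells with TGF-β1 19.5, 18.4 and 18.9 FPKM, those with M-MDSC supernatant 21.8, 21.0 and 21.7 FPKM and those with G-MDSC supernatant 20.7, 20.1 and 23.6 FPKM. The groups with and without TGF-β1 did not overlap, and every supernatant library was above every library with TGF-β1 alone. With TGF-β1 the log2 fold change was 0.55 (SE 0.07, adjusted p = 0.000139) and passed in all 17 alternative fits. The further differences were 0.16 for each supernatant, with unadjusted p-values of 0.0488 (M-MDSC) and 0.0533 (G-MDSC) and adjusted p-values from edgeR of 0.295 and 0.301, which do not pass.

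**Figure D2:**
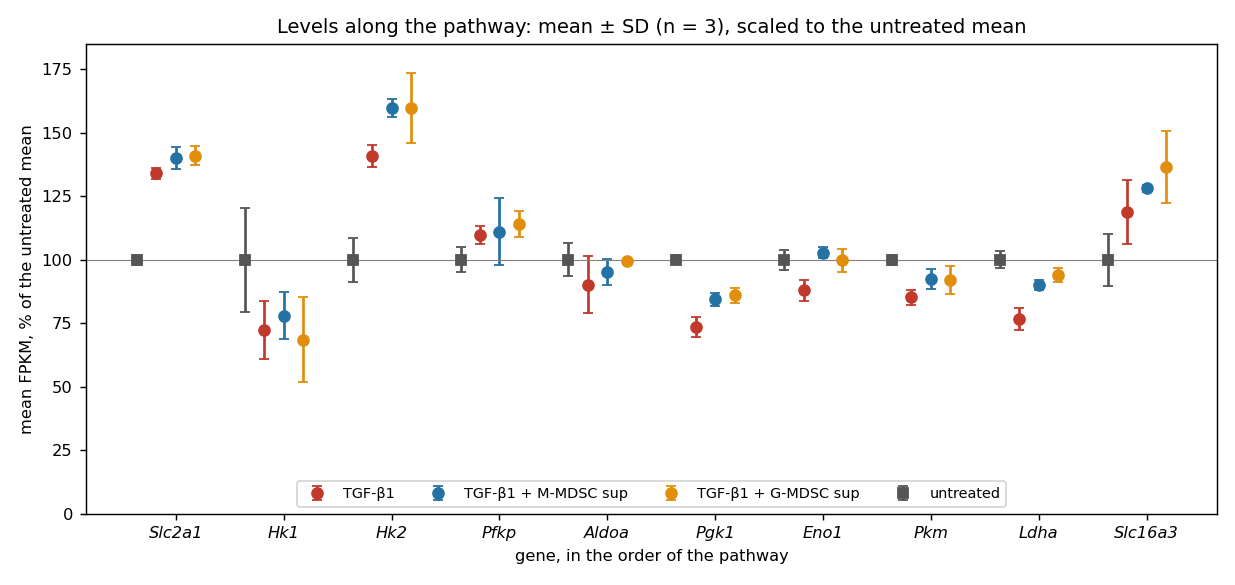
Mean FPKM as a percentage of the untreated mean (vertical axis) for the 10 genes in the order of the pathway (horizontal axis), mean ± SD (n = 3) for each of the 4 groups. Slc2a1 and Hk2 are above the line at 100% in all 3 groups with TGF-β1, and Pgk1, Pkm and Ldha are below it, lowest with TGF-β1 alone.

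Pfkp (ENSMUSG00000021196, chr13:6579768-6648777) was the least abundant member, a minor subunit of phosphofructokinase in these cells. The 3 untreated libraries had 1.43, 1.48 and 1.58 FPKM, the TGF-β1 libraries 1.70, 1.61 and 1.61, the M-MDSC supernatant libraries 1.58, 1.88 and 1.52 and the G-MDSC supernatant libraries 1.77, 1.62 and 1.73 FPKM. Its level with TGF-β1 was above all untreated libraries by a small margin. A log2 fold change of 0.19 (SE 0.08) gave an adjusted p of 0.112 and did not pass, nor did the supernatant differences of -0.0036 (M-MDSC) and 0.03 (G-MDSC).

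Aldoa (ENSMUSG00000030695, chr7:126795234-126800751) encodes the main aldolase of muscle and most dividing cells. It was found at 257, 293 and 276 FPKM in untreated cells, 224, 238 and 283 FPKM with TGF-β1, 277, 250.2 and 258 FPKM with M-MDSC supernatant and 275, 276 and 272 FPKM with G-MDSC supernatant. TGF-β1 replicate 3 was higher than the other libraries of its group and within the untreated range, so the groups overlapped. The log2 fold change of -0.09 (SE 0.08) had an adjusted p of 0.430, and without TGF-β1 replicate 3 it was -0.21 (adjusted p = 0.0363). The other row under this symbol (ENSMUSG00000114515, chr7:126800790-126809108) was at 0.364 to 0.690 FPKM and was not tested.

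Pgk1 (ENSMUSG00000062070, chrX:106187100-106203699) encodes the enzyme of the first ATP-forming step. Untreated libraries had 469.9, 475 and 459 FPKM, TGF-β1 libraries 343, 325 and 362 FPKM, M-MDSC supernatant libraries 402, 382 and 402 FPKM and G-MDSC supernatant libraries 402, 416 and 389 FPKM. The untreated, TGF-β1 and supernatant libraries formed separate levels, with both supernatant groups between the other groups and overlapping each other. Its log2 fold change with TGF-β1 was -0.39 (SE 0.04, adjusted p = 4.10e-05), and it was called in all 17 alternative fits. Relative to TGF-β1 alone it rose by 0.18 with M-MDSC supernatant (SE 0.04, adjusted p = 0.0382) and by 0.20 with G-MDSC supernatant (SE 0.04, adjusted p = 0.0196). Both calls depended on single libraries, as given with the supernatant comparisons.

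Eno1 (ENSMUSG00000063524, chr4:150236721-150248879) encodes the enolase of most tissues. Its values were 179, 190.0 and 176 FPKM in untreated cells, 158, 154 and 168 FPKM with TGF-β1, 183, 190.3 and 188 FPKM with M-MDSC supernatant and 177, 191 and 176 FPKM with G-MDSC supernatant. All TGF-β1 libraries were below all others, and the supernatant groups overlapped the untreated group. With TGF-β1 the log2 fold change was -0.13 (SE 0.05, adjusted p = 0.0565), just outside the threshold, and it passed without TGF-β1 replicate 3 (-0.17, adjusted p = 0.0255), with upper-quartile scaling and with limma on FPKM. It rose with M-MDSC supernatant by 0.20 (SE 0.05, adjusted p = 0.0308), and the 0.15 with G-MDSC supernatant (SE 0.05, adjusted p = 0.0914) did not pass.

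Values for Eno1 are uncertain because near-identical copies hold 44.2% to 48.9% of the counts of Eno1 and its copies together. Eno1b and the processed pseudogene Gm4735 are 99.5% and 99.6% identical to Eno1 over the aligned transcript and had median counts of 36151 and 36324.5 per library. Reads that fit more than 1 of these loci can be split between them, and how the counting treated such reads is not given in the sources used here. With the copies added, the log2 fold change was -0.12 with TGF-β1 (adjusted p = 0.0514), 0.14 with M-MDSC supernatant (adjusted p = 0.106) and 0.11 with G-MDSC supernatant (adjusted p = 0.189), so the M-MDSC call was lost. Copies held at most 2.65% of such counts for Pgk1, 1.55% for Pkm, 0.360% for Ldha and 0.107% for Aldoa, and adding them changed no call of these genes. No such copy was found for the other members.

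**Figure D3:**
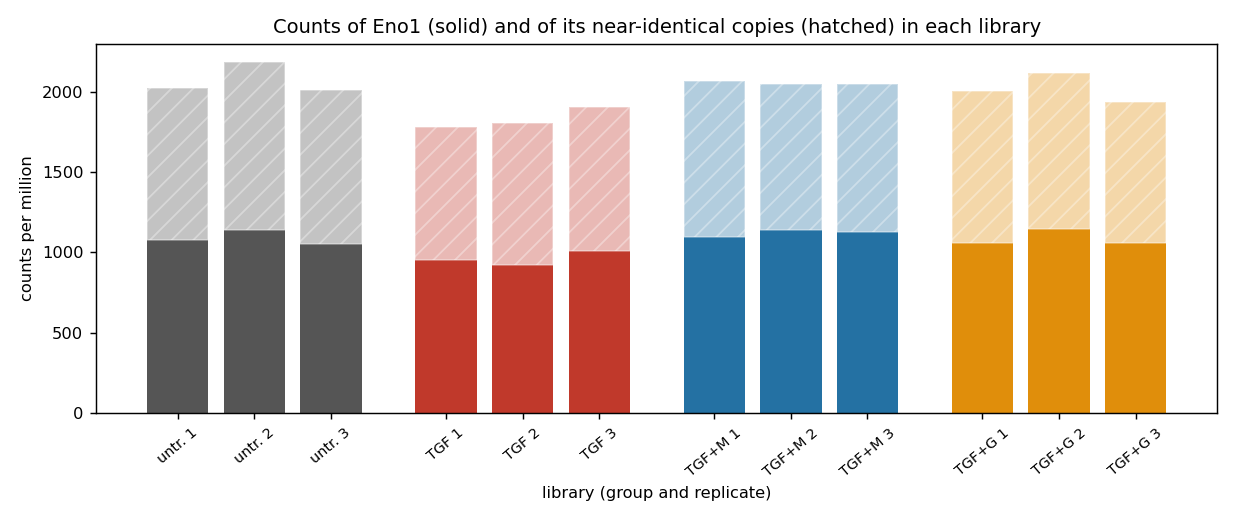
CPM, counts scaled to the library total (vertical axis, from 0), of Eno1 (solid) and of its near-identical copies (hatched, stacked on top) in each of the 12 libraries (horizontal axis). Eno1 alone runs from 921 to 1147 CPM and the stacked total from 1782 to 2189, with the 3 TGF-β1 libraries lowest in both.

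Pkm (ENSMUSG00000032294, chr9:59656368-59679375) encodes pyruvate kinase, the enzyme of the last step to pyruvate, and was the most abundant member. It had 600.5, 581 and 581 FPKM in untreated cells, 483, 502 and 518 FPKM with TGF-β1, 568, 522 and 540.2 FPKM with M-MDSC supernatant and 573, 539.6 and 509 FPKM with G-MDSC supernatant. Every untreated library was above every other library, and the G-MDSC supernatant group overlapped the TGF-β1 group while the M-MDSC supernatant group lay above it. With TGF-β1 it had a log2 fold change of -0.17 (SE 0.05, adjusted p = 0.0167), which was lost without TGF-β1 replicate 1 (-0.15, adjusted p = 0.0649) and with no filter on low values (adjusted p = 0.0552). With supernatant the differences of 0.10 (M-MDSC, adjusted p = 0.353) and 0.08 (G-MDSC, adjusted p = 0.432) did not pass. Gene totals cannot separate the M1 and M2 splice forms of this gene.

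Ldha (ENSMUSG00000063229, chr7:46841475-46855627) encodes the subunit that turns pyruvate to lactate, and was called in 3 of the 4 comparisons. It was present at 298, 317 and 302 FPKM in untreated cells, 232, 223 and 248 FPKM with TGF-β1, 282, 269.6 and 275 FPKM with M-MDSC supernatant and 292, 293 and 277 FPKM with G-MDSC supernatant. The TGF-β1 libraries were the lowest, the untreated ones the highest, and both supernatant groups lay between without overlapping either. With TGF-β1 it changed by -0.33 on the log2 scale (SE 0.04, adjusted p = 0.000195), called in all 17 alternative fits. It rose by 0.27 with G-MDSC supernatant (SE 0.04, adjusted p = 0.00438), also called in all 17, and by 0.21 with M-MDSC supernatant (SE 0.04, adjusted p = 0.0212), called in 11 of 17.

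Slc16a3 (ENSMUSG00000025161, chr11:120948480-120958775), the MCT4 lactate exporter, was weakly expressed. Untreated replicates had 2.16, 2.20 and 1.82 FPKM, TGF-β1 replicates 2.23, 2.38 and 2.74 FPKM, M-MDSC supernatant replicates 2.63, 2.67 and 2.62 FPKM and G-MDSC supernatant replicates 2.55, 2.76 and 3.13 FPKM. The lowest TGF-β1 library was only just above the highest untreated one. The log2 fold change of 0.30 (SE 0.11, adjusted p = 0.0479) was at the edge of the threshold and passed in 5 of 17 alternative fits, with adjusted p-values from edgeR, DESeq2 and limma of 0.0322 to 0.191. It was lost without any of untreated replicates 1, 2 and 3 (adjusted p = 0.0749, 0.0519 and 0.160) or TGF-β1 replicates 2 and 3 (0.0814 and 0.191). Differences with supernatant were 0.09 (M-MDSC) and 0.17 (G-MDSC) and did not pass.

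**Figure D4:**
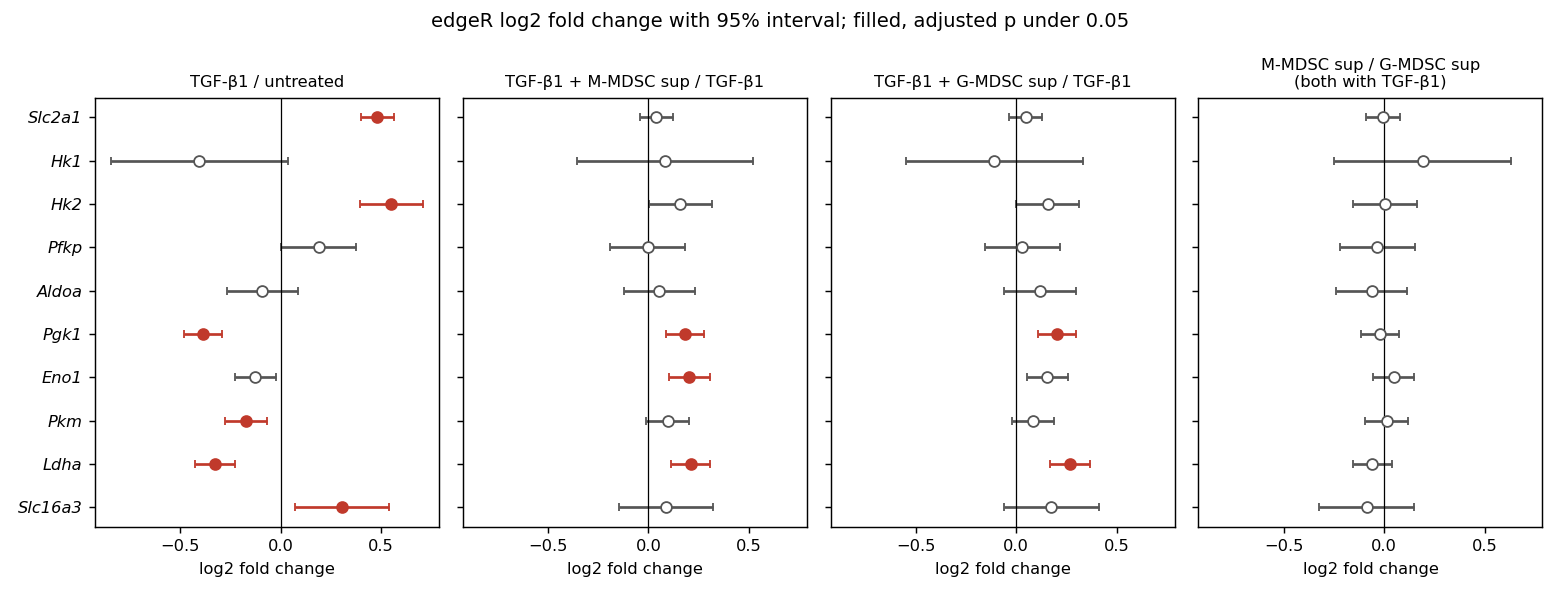
edgeR log2 fold change (horizontal axes) of each gene (vertical axis) in the 4 comparisons, with 95% intervals. Filled red points have an adjusted p under 0.05: 6 genes with TGF-β1 against untreated, 3 with M-MDSC and 2 with G-MDSC supernatant against TGF-β1 alone, and 0 between the supernatants.

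Supernatant of M-MDSCs added to TGF-β1 raised 3 of 10 members, Pgk1, Eno1 and Ldha, and lowered 0, against 2.83% of all genes tested that rose and 1.95% that fell. DESeq2 also called 3 higher and 0 lower, and at an unadjusted p under 0.05 edgeR had 4 higher, the fourth being Hk2, and 0 lower. Supernatant of G-MDSCs raised 2 of 10, Pgk1 and Ldha, and lowered 0, against backgrounds of 3.1% and 2.46%; at an unadjusted p under 0.05 edgeR added Eno1 and lowered 0, and DESeq2 also called Eno1 (log2 fold change 0.16, adjusted p = 0.0425). Shares of all genes at an unadjusted p under 0.05 were not computed, so the counts at that threshold have no background beside them. The median log2 fold change of the members was 0.09 with M-MDSC and 0.14 with G-MDSC supernatant, against -0.01 over all genes in each. The comparisons share the same 3 TGF-β1 libraries, so they are not independent of each other, and the fall with TGF-β1 is measured against these libraries too. The members' share of all counts was 0.727% to 0.764% with M-MDSC and 0.724% to 0.764% with G-MDSC supernatant, between the values of TGF-β1 and untreated cells.

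Most of the supernatant calls missed the adjusted p threshold when 1 library was left out, while the log2 fold changes kept their direction. With single libraries left out they ran for M-MDSC supernatant from 0.14 to 0.24 for Pgk1, 0.18 to 0.25 for Eno1 and 0.18 to 0.27 for Ldha, and for G-MDSC supernatant from 0.17 to 0.26 for Pgk1 and 0.24 to 0.33 for Ldha. All 3 calls with M-MDSC supernatant were lost without TGF-β1 replicate 1 (adjusted p from 0.0804 to 0.114), TGF-β1 replicate 2 (0.0897 to 0.141), M-MDSC replicate 1 (0.0572 to 0.119) or M-MDSC replicate 3 (0.0666 to 0.130). Without M-MDSC replicate 2, Pgk1 (adjusted p = 0.0523) and Eno1 (0.110) were lost and Ldha stayed. For G-MDSC supernatant, Pgk1 was lost without TGF-β1 replicates 1 or 2 (0.0640 and 0.0764) or G-MDSC replicates 1 or 2 (0.0653 and 0.0783), and Ldha stayed without each of the 6 libraries. Kidney tubule markers were highest in M-MDSC replicate 3, at 75.2 FPKM, where Ldha was 275 FPKM, between the 282 and 269.6 FPKM of the other libraries of the group, and Pgk1 was 402 FPKM, as in replicate 1. The log2 fold change of Ldha without that library was 0.21, as with it, but the other libraries of the group also held these markers, at 10.8 and 14.4 FPKM. In the G-MDSC supernatant group the markers summed to 40.8 to 54.6 FPKM, and Ldha rose by 0.27 and Pgk1 by 0.20 there. The part of these transcripts in the rises was not tested.

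Between the supernatants, 0 of 10 members differed by edgeR, and 0 did at an unadjusted p under 0.05, by DESeq2 or by limma. For the unadjusted threshold the share of all genes was not computed. With M-MDSC supernatant as numerator, 0.0999% of all genes tested had a higher and 0.025% a lower level. The 95% intervals of the log2 difference, M-MDSC minus G-MDSC, bound how large an undetected difference could be. They ran from -0.09 to 0.08 for Slc2a1, -0.12 to 0.07 for Pgk1, -0.16 to 0.04 for Ldha, -0.05 to 0.15 for Eno1 and -0.09 to 0.12 for Pkm. For the less precise genes they ran from -0.15 to 0.16 for Hk2, -0.24 to 0.12 for Aldoa, -0.22 to 0.15 for Pfkp, -0.32 to 0.15 for Slc16a3 and -0.25 to 0.63 for Hk1. A difference of the size of the TGF-β1 effect on Hk2 lies outside all of these intervals except that of Hk1.

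The shares of isozymes and carriers within a library put the members beside their alternatives on the FPKM scale and were not tested. Hk2 made up 42.0%, 41.2% and 47.6% of the summed Hk1 and Hk2 in untreated cells and 58.3%, 56.8% and 64.4% with TGF-β1, so the larger part passed from Hk1 to Hk2. The share was 64.7%, 58.6% and 59.8% with M-MDSC and 66.5%, 66.1% and 60.4% with G-MDSC supernatant. Slc16a3 was a minor part of Slc16a1 (MCT1, the carrier that moves lactate either way) and Slc16a3 together, at 4.40% ± 0.42 (SD, n = 3) in untreated cells and 10.4% ± 1.2 with TGF-β1. The mean of Slc16a1 was 44.8 FPKM in untreated cells and 21.1 FPKM with TGF-β1, and that of Slc16a3 2.06 and 2.45 FPKM. Liver-type Pfkl took 51.4% ± 1.7 (SD, n = 3) of the 3 phosphofructokinase genes in untreated cells, 45.9% ± 2.3 with TGF-β1, 54.1% ± 0.25 with M-MDSC and 54.1% ± 1.9 with G-MDSC supernatant, and Pfkp took 3.89% to 4.22% in untreated libraries, 5.89% to 6.30% with TGF-β1, 5.26% to 6.91% with M-MDSC and 5.30% to 6.04% with G-MDSC supernatant, with no overlap between the untreated libraries and the others. Ldha was 91.6% ± 1.2 (SD, n = 3) of Ldha and Ldhb in untreated cells and 94.2% ± 0.39 with TGF-β1, with Ldhb at a mean of 28.0 FPKM and 14.4 FPKM. Slc2a1 exceeded Slc2a3 in every library, at 95.6% to 98.2% of their sum, and Aldoa made up 99.9% of Aldoa and Aldoc in the library where its share was lowest.

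**Figure D5:**
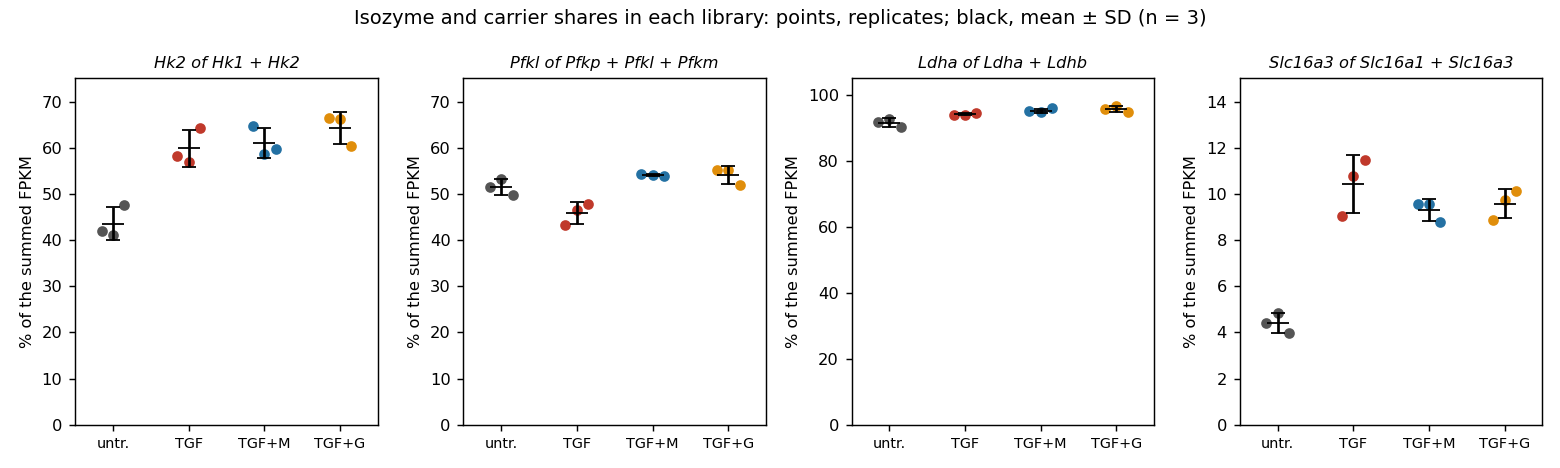
Share of Hk2, Pfkl, Ldha and Slc16a3 in the summed FPKM of the genes named above each panel (vertical axes, percent, from 0), with points for libraries and black bars for the mean ± SD (n = 3) in the 4 groups. The Hk2 share rises from 41.2% to 47.6% in untreated libraries to 56.8% to 64.4% with TGF-β1 and the Slc16a3 share from 3.98% to 4.83% to 9.05% to 11.5%, while the Pfkl share is lowest with TGF-β1 alone.

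Most of the other glycolysis enzymes tested fell with TGF-β1. Of 17 listed, 11 were tested, and 7 fell and 2 rose with TGF-β1, against 17.9% and 16.1% of all genes, with a median log2 fold change of -0.31. Among those that fell were Tpi1, triosephosphate isomerase (log2 fold change -0.47, SE 0.06), Pfkl (-0.57, adjusted p = 1.01e-05) and Ldhb, the lactate dehydrogenase subunit that favours pyruvate (-0.90, adjusted p = 0.000614). Those that rose were Adpgk, an ADP-dependent glucokinase (0.25), and Bpgm, which makes 2,3-bisphosphoglycerate (0.34). With supernatant Pfkl rose (0.28 with M-MDSC, adjusted p = 0.0105, and 0.37 with G-MDSC, adjusted p = 0.00178). With either supernatant 0 of the list fell. Over all genes 1.95% fell with M-MDSC and 2.46% with G-MDSC supernatant, so 0 is near the background.

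Of 10 other listed genes of glucose and lactate transport 4 were tested, and with TGF-β1 a lactate carrier and its membrane partners fell: Slc16a1 (log2 fold change -1.03, adjusted p = 2.65e-07), Emb (-1.07, adjusted p = 4.00e-06) and Bsg (-0.50, adjusted p = 0.0270), which is 3 of 4 against 17.9% of all genes. Slc2a8, a glucose carrier and the remaining gene tested, was at -0.32 (adjusted p = 0.148) and did not pass. Emb and Bsg encode embigin and basigin, the membrane partners that bring monocarboxylate carriers to the cell surface. Slc16a1 rose with M-MDSC (0.27, adjusted p = 0.0244) and G-MDSC supernatant (0.31, adjusted p = 0.0105), while Bsg, at 0.26 and 0.39, did not pass.

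Of 15 regulators of glycolytic flux and of the fate of pyruvate 14 were tested, and with TGF-β1 4 fell and 1 rose, against 17.9% and 16.1% of all genes. Pdk1 (log2 fold change -1.21, adjusted p = 3.22e-05) and Pdk2 (-0.66, adjusted p = 0.00225), kinases that switch pyruvate dehydrogenase off, fell, as did Pdp1 (-0.94, adjusted p = 4.16e-06), a phosphatase that switches it on, and Pdha1, a subunit of that enzyme (-0.14). Tigar, which lowers fructose 2,6-bisphosphate, rose by 0.41 (adjusted p = 0.00355). With either supernatant edgeR called 0 of the 14, where 2.83% of all genes rose and 1.95% fell with M-MDSC and 3.1% and 2.46% with G-MDSC supernatant, so 0 is near the background. At an unadjusted p under 0.05 edgeR had 2 of the 14 with M-MDSC and 3 with G-MDSC supernatant. The share of all genes at that threshold was not computed, so these counts have no background beside them. Pdk1 was at 0.26 with M-MDSC and 0.39 with G-MDSC supernatant, with adjusted p-values of 0.354 and 0.131.

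In the pentose phosphate pathway and gluconeogenesis 12 of 13 genes were tested, and 5 fell and 1 rose with TGF-β1, against 17.9% and 16.1% of all genes. With TGF-β1, Pcx, pyruvate carboxylase (log2 fold change -1.59, adjusted p = 1.04e-07), G6pdx (-0.47, adjusted p = 1.35e-06), Taldo1 (-0.38, adjusted p = 8.90e-05), Tkt (-0.19) and Pgd (-0.18) fell and Pck2, the mitochondrial PEP carboxykinase, rose (0.77). G6pdx, Pgd, Tkt and Taldo1 are enzymes of the pentose phosphate pathway. Pck1 and Fbp1, enzymes of glucose synthesis in kidney and liver, are among the 12 but could not be called with TGF-β1, since they were at 0 counts in all libraries without supernatant. They passed the filter on low values only through the supernatant groups, where they were the 2 genes called higher, so this count is no result about the list beside the 2.83% (M-MDSC) and 3.1% (G-MDSC) of all genes. They were at 603 to 1570 and 71 to 312 counts with supernatant, alongside the kidney tubule markers.

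The HIF pathway and its targets outside glycolysis did not move one way. Of 17 listed genes 12 were tested, and 4 rose and 5 fell with TGF-β1, against 16.1% and 17.9% of all genes. Vegfa, the angiogenic growth factor (log2 fold change 2.35, adjusted p = 4.98e-10), Ddit4, an inhibitor of mTOR signalling (1.48, adjusted p = 5.15e-09), Ndrg1 (0.83, adjusted p = 3.86e-07) and Egln1, a prolyl hydroxylase that marks HIF for decay (0.17), rose. Bnip3, a gene of mitophagy (-0.97, adjusted p = 1.64e-05), its relative Bnip3l (-0.61), Egln2 (-0.28), Arnt (-0.20) and P4ha1 (-0.14) fell. Hif1a itself did not pass with TGF-β1 (-0.12, adjusted p = 0.207). With supernatant, Bnip3 rose (0.46 with M-MDSC, adjusted p = 0.0189, and 0.54 with G-MDSC, adjusted p = 0.00587) and Ndrg1 fell (-0.20 and -0.21, adjusted p = 0.0454 and 0.0358), and Hif1a rose with G-MDSC supernatant only (0.29, adjusted p = 0.0277; 0.20 with M-MDSC, adjusted p = 0.137), while the direct test between the supernatants did not pass (-0.09, adjusted p = 0.933). Adpgk, Bpgm, Pdha1, Tkt, Pgd, Pck2, Fbp1, Egln1, Bnip3l, Egln2, Arnt, P4ha1 and Hif1a are named here because the counts they belong to were small, and Slc2a8, Itgb1, Ly6a, Pdgfra, Thy1, Lyz2, Ly6g and Ly6c2 to account for their lists, all after their values were seen.

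Correlations across the 12 libraries are given as a description, since the points share groups. Pgk1 and Ldha had a Pearson r of 0.95 in log2(FPKM + 1), Slc2a1 and Hk2 0.94, and Pgk1 and Pkm 0.89, while Slc2a1 and Pgk1 had -0.71. Hk1 had r from -0.64 with Slc2a1 to 0.41 with Pgk1, and Eno1 had an r of 0.81 with Ldha and -0.10 with Slc2a1. The 5 genes outside the list with the highest r to the mean profile of the members were Ifi27 (0.93), Orc1 (0.92), Mipep (0.92), Llph (0.91) and Psme2b (0.91).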

How the data were processed

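Poly(A) RNA of 12 MSC libraries was sequenced as paired reads from dUTP-marked cDNA. According to the methods and processing notes, the authors checked the reads with fastp, trimmed them with cutadapt 1.9, aligned them to GRCm38 with HISAT2 2.0.4 and assembled them with StringTie 1.3.4d. The deposited table holds raw counts per gene and library; the counting tool and its use of strand are not given in the sources used here. Beside them stand FPKM values from the authors, where 0.0001 stands for a gene without counts. Libraries held 73977669 to 84565450 counts, and replicates differed by 63.6 to 87.8 times the counting variance, and this spread, more than counting error, set the precision.

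Genes with at least 1 FPKM in at least 3 of 12 libraries were tested, 12016 in all, in 1 edgeR 4.0.16 quasi-likelihood fit (two-sided, R 4.3.3, TMM factors 0.978 to 1.03, no block), with Benjamini-Hochberg adjustment over all genes and a call at adjusted p under 0.05. On simulated counts for TGF-β1 against untreated (12016 genes), 45 of 100 genes changed by 0.5 log2 units and 76 of 100 changed by 1 were called, with 4 false calls. Far fewer genes changed there than the 4082 called in the data. The adjustment was therefore stricter than in the data, and these shares are not the power of that comparison. Pearson correlations used log2(FPKM + 1). Near-identical copies were annotated GENCODE vM21 transcripts matched with blastn 2.17.0 at 90% identity or more over at least 300 bases and 50% of the copy. Gene positions are those deposited with the counts, and promoter sequences are from RefSeq (GRCm38.p6), in which all 10 members matched by symbol. Alternatives were other scalings, filters, tools (DESeq2 1.42.0, limma 3.58.1), groups in the fit, counts divided by 4 (low counts piled up at multiples of 4), summed copies, a replicate block, the study's fold-change rule and each library left out.

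The members and lists were chosen with earlier results of these data known. All members are named; other genes are named where called, at most 4 per list by smallest p, with the exceptions stated. The result for 1 gene of the list of other glycolysis enzymes is not reported here.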

Additional observations from a re-analysis of the deposited data

How the results depend on the processing

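The count of members called with TGF-β1 against untreated stayed within 1.5 times its value in 17 of 18 alternatives, with M-MDSC supernatant against TGF-β1 in 8 of 18, with G-MDSC supernatant in 11 of 18 and between the supernatants in 18 of 18. Under the rule of a fold change over 2 or under 0.5 with an unadjusted p under 0.05, the first 3 counts were 0 instead of 6, 3 and 2, since no member changed by so much. For M-MDSC supernatant the count was 1 with upper-quartile scaling, 1 with no FPKM filter and 0 with the 2 groups fitted alone, and for G-MDSC supernatant it was 1 with the 2 groups alone. With single libraries left out, the counts ran from 5 to 7 for TGF-β1, from 0 to 3 for M-MDSC and from 1 to 2 for G-MDSC supernatant. Replicate numbers are shared by the groups, but same-numbered libraries did not deviate together (mean correlation -0.00384 over 18 pairs, 0 of them over 0.1, and 2 of 12 libraries closest to their own number). The labels do not say what the number stands for, and this check cannot exclude a pairing of the libraries. With the number as a replicate block the count was 0 for M-MDSC and 1 for G-MDSC supernatant.

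Some small differences changed sign. Pfkp with M-MDSC supernatant (-0.0036) was 0.0071 with RLE scaling, 0.0066 with no filter, 0.0076 with filterByExpr, 0.0070 with DESeq2, 0.0087 and 0.011 with limma on log2(FPKM + 1) and log2(FPKM + 0.1) and 0.010 with the 2 groups alone, and Hk2 between the supernatants (0.0037) was -0.0056 with upper-quartile scaling. With single libraries left out, log2 differences with M-MDSC supernatant ran from -0.11 to 0.059 for Pfkp, -0.014 to 0.17 for Aldoa and -0.027 to 0.18 for Hk1, and between the supernatants from -0.043 to 0.078 for Hk2, -0.031 to 0.016 for Slc2a1, -0.045 to 0.0026 for Pgk1, -0.029 to 0.057 for Pkm and -0.14 to 0.029 for Pfkp. Over all genes, the 574 calls with M-MDSC supernatant became 351 with the 2 groups alone, 355 without TGF-β1 replicate 2 and 262 by the fold-change rule, which gave 810 instead of 4082 with TGF-β1 and 261 instead of 668 with G-MDSC supernatant. The 15 calls between the supernatants became 121 with DESeq2, 38 with limma on log2(FPKM + 1), 41 with the 2 groups alone, 8 with the block, 66 by the fold-change rule, 9 without G-MDSC replicate 1 and 47 without M-MDSC replicate 3. Causes were not tested.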
